A study of Mus musculus with 9 samples.

Results

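The mouse genes of the colony-stimulating factors (CSFs) and their receptors were followed across 9 RNA-seq libraries of RAW264.7 cells. They were found by symbol in the GENCODE M21 annotation, which gave 8 genes out of the 28137 gene identifiers measured: the ligands Csf1 (ENSMUSG00000014599), Csf2 (ENSMUSG00000018916) and Csf3 (ENSMUSG00000038067), and the receptor chains Csf1r (ENSMUSG00000024621), Csf2ra (ENSMUSG00000059326), Csf2rb (ENSMUSG00000071713), Csf2rb2 (ENSMUSG00000071714) and Csf3r (ENSMUSG00000028859). RAW264.7 is a mouse macrophage line transformed by Abelson leukemia virus. Cells received 60 nM of a negative control siRNA (NC), of siRNA against SFRP2, a secreted modulator of Wnt signalling, or of siRNA against RAB6A, a small GTPase of Golgi trafficking, with 3 libraries in each group. According to the labels, all 9 samples were transfected for 6 h, kept in complete medium for 12 h and given 100 ng/ml lipopolysaccharide (LPS). RNA was taken after 24 h of polarization. All sample titles end in 6H, which matches the length of the transfection but is not explained in the titles. The paper describes polarization of these cells with LPS and interferon gamma, so interferon gamma may have been present in every library. Every group, the control included, therefore carried both a transfection and LPS, and no untreated library entered the comparisons. The labels do not say whether the 3 libraries of a group came from separate cultures, so p-values measure the spread between these libraries, which may be technical. The titles number the SFRP2 libraries siRNA-1 to siRNA-3, and the study's supplement lists siRNAs under the same names, so these libraries may come from different siRNAs, in which case the spread of that group, and the tests that rest on it, would include differences between siRNAs.

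CSF1 (M-CSF) keeps macrophages alive and proliferating through the receptor tyrosine kinase CSF1R, which IL-34 can also bind. CSF2 (GM-CSF) binds a receptor made of its own alpha chain, CSF2RA, and the beta common chain CSF2RB, and signals through JAK2 and STAT5. CSF3 (G-CSF) acts through CSF3R, a receptor known chiefly from neutrophils, and LPS is a classical inducer of CSF2 and CSF3 in macrophages.

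Values are FPKM, read counts scaled to gene length and library size, so that levels can be set side by side between genes and between libraries. This scaling does not correct for GC content or for differences in the make-up of the libraries. The size of several differences below depended on the scaling. A gene was tested when its mean FPKM over the 6 libraries of a comparison was at least 0.5, and called when limma on log2(FPKM + 0.1) gave an adjusted p under 0.05 over all genes tested. Of the 8 genes, 7 passed this filter in each comparison, and Csf3r did not. Fold changes below are on the log2(FPKM + 0.1) scale unless given as ratios of mean FPKM. In bulk RNA, fewer cells expressing a gene and less RNA per cell cannot be told apart.

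Library totals read back from the FPKM steps ran from 32758728 to 47149256 reads. Summed macrophage markers ran from 4518 to 4972 FPKM in NC, from 3990.5 to 4313 FPKM with SFRP2 siRNA and from 3952 to 4116 FPKM with RAB6A siRNA, while markers of neutrophils and of fibroblasts, epithelium, endothelium, T, B and mast cells summed to at most 3.32 FPKM per list in any library. Between NC and RAB6A siRNA the summed fibroblast markers ran from 1.30 to 2.58 FPKM and from 2.08 to 3.32 FPKM, and the epithelial markers from 0.483 to 1.24 FPKM and from 1.00 to 2.83 FPKM. Few such markers were above the filter. Col1a2 (log2 fold change 1.17, limma adjusted p = 0.0057), Dcn (0.81, adjusted p = 0.045) and the endothelial Pecam1 (0.69, adjusted p = 0.012) were called higher with RAB6A siRNA, each at a mean under 1 FPKM. The neutrophil marker S100a8 was called lower (-2.24, adjusted p = 0.0047). Each passed the filter only through its higher group. NC means were 0.310 FPKM for Col1a2, 0.348 for Dcn and 0.475 for Pecam1, and S100a8 averaged 0.135 FPKM with RAB6A siRNA. The filter thus favoured genes that were high in 1 group, and these calls are given as description only. Of 8 macrophage markers tested 1 was called higher with RAB6A siRNA, Ptprc (0.17), and 3 lower, Lyz2 (-2.03), Spi1 (-1.05) and Fcgr1 (-0.75). Of 6 markers of the inflammatory state after LPS, Cd86 (0.95), Ptgs2 (0.68) and Il1b (0.21) were called higher. Il6 (-0.94) and Tnf (-0.67) were called lower, and Nos2 was not called. The part of all these markers in the results below was not tested. Sfrp2 itself had 2 to 4 reads in every library, with means of 0.0213 FPKM in NC and 0.0401 FPKM with SFRP2 siRNA. At so low a level its knockdown could not be assessed. Rab6a stood at 25.7 ± 1.48 FPKM in NC and 20.7 ± 0.445 FPKM with RAB6A siRNA (SD, n = 3 each), a log2 fold change of -0.31 (SE 0.06, limma adjusted p = 0.0024) that became -0.13 (adjusted p = 0.097) after correction for GC content and gene length. RAB6A siRNA thus went with a small difference in its own target and with calls in 9418 of 12712 genes, and whether the differences below follow from Rab6a was not tested.

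The ligand genes carry different numbers of AU-rich pentamers in their 3' UTRs, the letters that RNA-binding proteins such as ZFP36 recognize in short-lived cytokine mRNAs. The 30 bases richest in them are shown for each ligand because regulators of such mRNAs are described further on. Sequences are from GRCm38 and read 5' to 3' on the mRNA strand, and capitals mark each ATTTA.
Csf2: tttttaaatATTTATTTATTTATTTATTTA
Csf3: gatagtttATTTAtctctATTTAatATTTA
Csf1: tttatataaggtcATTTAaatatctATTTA
The Csf2 stretch lies at chr11:54247329-54247358 (minus strand), bases 230 to 259 after the stop codon. The Csf3 stretch lies at chr11:98702984-98703013 (plus strand), bases 24 to 53 after the stop codon, and the Csf1 stretch at chr3:107741109-107741138 (minus strand), bases 2021 to 2050. In Csf2 the pentamers run into each other, whereas in Csf3 and Csf1 they are separated by other bases. In total the Csf2 3' UTR held 9 pentamers in 317 bases, that of Csf3 held 6 in 669 bases and that of Csf1 held 4 in 2111 bases. Csf1r had 3 in 1669 bases, and none of these letters were found in the 3' UTRs of Csf2ra, Csf2rb, Csf2rb2 and Csf3r. The longer nonamer TTATTTATT was found 4 times in Csf2 and in none of the other 7 genes. It was held by 7.26% of 9980 tested genes with an annotated 3' UTR, and the median log2 fold change with RAB6A siRNA was -0.07 among those genes and -0.07 among all 9980. Of the same genes, 19.5% held 5 or more pentamers, with a median of -0.12.

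**Figure D1:**
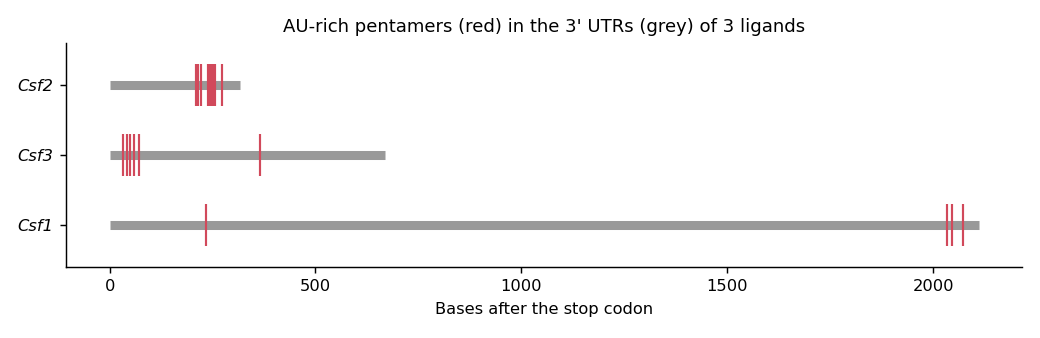
Positions of AU-rich pentamers along the 3' UTRs of the ligand genes. The x axis is the distance from the stop codon in bases, grey bars give the length of each 3' UTR and red ticks mark the first base of each pentamer. The 9 pentamers of Csf2 lie in the distal part of a short 3' UTR of 317 bases, 5 of the 6 in Csf3 lie close to the stop codon, and 3 of the 4 in Csf1 lie near the far end of 2111 bases.

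With RAB6A siRNA, the ligands Csf1 and Csf2 were lower and Csf3 was higher than in NC, the receptors Csf1r and Csf2rb2 were lower, and Csf2ra and Csf2rb were not called. In all, 5 of the 7 genes tested were called against NC, 1 higher and 4 lower, where 74.1% of all 12712 genes tested were called, 37.6% higher and 36.5% lower. The share of members called was therefore close to that of all genes. An absolute log2 fold change over 1 as well was met by 3 members, Csf1, Csf1r and Csf2, and by 30.1% of all genes. The median log2 fold change was -0.65 over the 7 genes and 0.03 over all genes tested. Among the 8 genes, 7 had groups that did not overlap, a count that includes Csf3r, which was below the filter. The same held for 77.4% of genes tested, all of which passed the filter.

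Csf2, the GM-CSF gene at chr11:54247271-54249667 (minus strand), had the largest fall among the 7 genes tested. It measured 58.3, 56.3 and 57.4 FPKM in the NC libraries, 57.6, 61.1 and 60.2 FPKM with SFRP2 siRNA, and 12.5, 13.0 and 15.8 FPKM with RAB6A siRNA. Every RAB6A library lay far below all 6 others, and the NC and SFRP2 groups overlapped. The mean was 4.17 times lower with RAB6A siRNA than in NC (log2 fold change -2.06, SE 0.09, limma adjusted p = 2.2e-06, lower in 3 of 3 libraries). The exons of Csf2 overlap Gm12223 on the opposite strand, which had 0 reads in NC and at most 4 reads in any library.

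Csf1, the M-CSF gene at chr3:107741048-107760469 (minus strand), fell as well. Its levels were 9.17, 9.15 and 9.31 FPKM in NC, 9.04, 9.61 and 8.66 FPKM with SFRP2 siRNA, and 3.03, 3.55 and 3.66 FPKM with RAB6A siRNA. The 3 NC libraries agreed closely, with an SD of 0.0904 FPKM, and the RAB6A libraries sat apart below both other groups. The mean was 2.70 times lower than in NC (log2 fold change -1.41, SE 0.08, limma adjusted p = 6.1e-06). Il34, which encodes the other ligand of CSF1R, was near the limit of detection, with 4 to 6 reads in NC, 0 to 6 reads with SFRP2 siRNA and 5 to 21 reads with RAB6A siRNA, and was not tested at this level.

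Csf3, the G-CSF gene at chr11:98701263-98703629 (plus strand), moved the other way. It was already the most abundant of the 8 genes in NC, at 648, 596 and 609 FPKM, with 49 genes above its mean. With SFRP2 siRNA it measured 628, 561 and 491 FPKM, and with RAB6A siRNA 1227, 1276 and 1033 FPKM. All 3 RAB6A libraries exceeded the other 6, and the mean was 1.91 times that of NC (log2 fold change 0.93, SE 0.10, limma adjusted p = 8.3e-05). The size of this rise depended on the scaling: it was 0.48 after correction for GC content and gene length and 0.51 after quantile normalization, and it was called under all 19 alternatives tried.

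**Figure D2:**
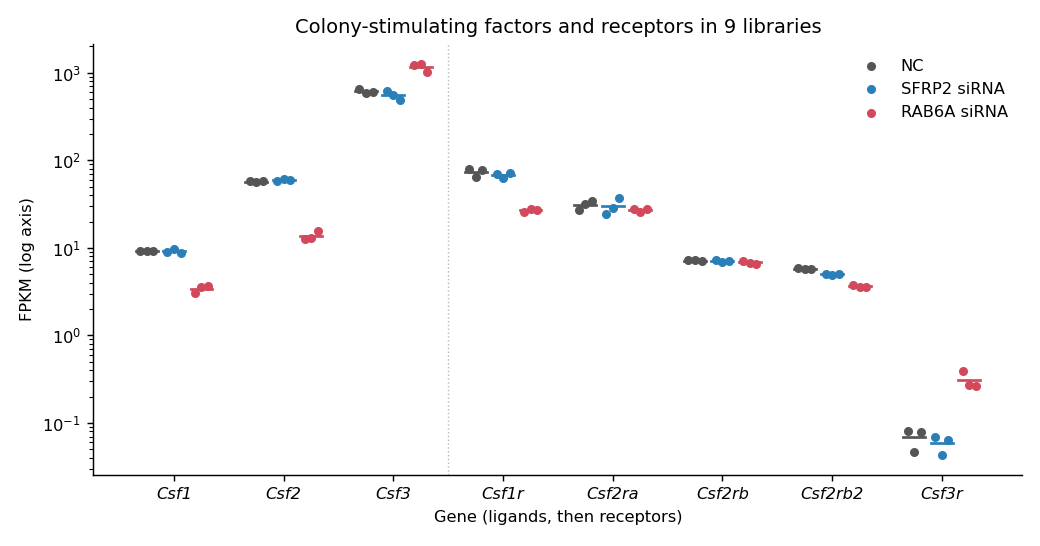
FPKM of the 8 genes in each of the 9 libraries, on a log axis, with ligands to the left of the dotted line and receptors to the right. Points are libraries and short bars are group means (n = 3 per group). The RAB6A siRNA libraries lie below the NC and SFRP2 siRNA libraries for Csf1, Csf2, Csf1r and Csf2rb2 and above them for Csf3 and Csf3r.

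Because Csf3 and Csf2 moved in opposite directions, the ratio of Csf3 to Csf2 within a library was computed, a measure chosen after the values were seen. It was 11.1, 10.6 and 10.6 in NC, 10.9, 9.17 and 8.16 with SFRP2 siRNA, and 98.3, 98.3 and 65.2 with RAB6A siRNA. The lowest RAB6A ratio stood well clear of the highest ratio elsewhere, and the group mean was 8.11 times that of NC (two-sided exact permutation p = 0.1, the smallest that 3 against 3 libraries can give). The third RAB6A library had the lowest ratio of its group, through a lower Csf3 and a higher Csf2.

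Csf1r, the receptor tyrosine kinase for CSF1 and IL-34, fell about as much as Csf1. Its levels were 79.3, 63.9 and 77.6 FPKM in NC, 70.3, 63.4 and 71.4 FPKM with SFRP2 siRNA, and 25.7, 28.0 and 27.2 FPKM with RAB6A siRNA. NC library 2 was the lowest of its group, still more than double any RAB6A library. The mean was 2.73 times lower than in NC (log2 fold change -1.44, SE 0.09, limma adjusted p = 7.8e-06). The ratio of Csf1r to Csf1 within a library averaged 7.99 in NC and 7.94 with RAB6A siRNA, with overlapping groups (exact permutation p = 1). The exons of Csf1r overlap those of Hmgxb3 on the opposite strand, which measured 4.86 to 5.80 FPKM in NC and 3.12 to 3.25 FPKM with RAB6A siRNA, and the strand setting of the counting is not given in the sources used here, so reads in the shared stretch cannot be told apart.

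Csf2ra, the ligand-binding alpha chain for GM-CSF at chr19:61223957-61228429 (minus strand), was not called. It measured 27.1, 31.8 and 34.4 FPKM in NC, 24.4, 28.9 and 37.0 FPKM with SFRP2 siRNA, and 28.0, 25.6 and 27.8 FPKM with RAB6A siRNA. The groups overlapped, and the spread was wider in NC and SFRP2 siRNA than with RAB6A siRNA. The log2 fold change against NC was -0.19, with a 95% interval from -0.41 to 0.03 (limma adjusted p = 0.097). The call depended on 1 library and on the method: without NC library 1 the value was -0.29 (adjusted p = 0.014), with the GC content and length correction -0.36 (adjusted p = 0.022), and with voom on recovered reads -0.19 (adjusted p = 0.046).

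Csf2rb, the signalling beta common chain at chr15:78325752-78353847 (plus strand), had the smallest log2 fold change of the receptor genes tested. It measured 7.18, 7.21 and 7.10 FPKM in NC, 7.32, 6.93 and 7.15 FPKM with SFRP2 siRNA, and 7.10, 6.77 and 6.59 FPKM with RAB6A siRNA. The highest RAB6A library lay only just below the lowest NC library. The log2 fold change against NC was -0.07, with a 95% interval from -0.21 to 0.07 (limma adjusted p = 0.32).

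Csf2rb2, at chr15:78282507-78305721 (minus strand), encodes the mouse beta chain that pairs with the IL-3 receptor alpha chain, and it fell with RAB6A siRNA. Levels were 5.92, 5.67 and 5.76 FPKM in NC, 4.99, 4.96 and 5.06 FPKM with SFRP2 siRNA, and 3.76, 3.60 and 3.61 FPKM with RAB6A siRNA. The 3 groups formed separate steps with no overlap. The mean was 1.58 times lower with RAB6A siRNA than in NC (log2 fold change -0.65, SE 0.06, limma adjusted p = 6.5e-05). The ratio of Csf2rb to Csf2rb2, also chosen after the values were seen, was 1.21, 1.27 and 1.23 in NC, 1.47, 1.40 and 1.41 with SFRP2 siRNA, and 1.89, 1.88 and 1.83 with RAB6A siRNA, and again the groups did not overlap (exact permutation p = 0.1 for each pair of groups, the smallest possible).

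Both beta chain genes are uncertain as separate measurements, because they are near copies. Their coding sequences were identical at 2505 of 2631 aligned bases (95.2%). Of the stretches of 50 bases in the Csf2rb transcript, 18.4% occurred unchanged in that of Csf2rb2, which fell to 6.96% for 100 bases and 3.47% for 150 bases. Each also overlaps a microRNA gene that was not among the identifiers measured, Mir7676-2 and Mir7676-1. How reads matching both genes were counted is not given in the sources used here. The partners that share these beta chains were hardly detected: Il3ra had 0 to 6 reads, Il5ra 0 to 3 reads and Il5 at most 1 read in any library. Il3 was looked for but was not among the identifiers measured.

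Csf3r, at chr4:126024550-126044440 (plus strand), was the lowest of the 8 genes and stayed below the filter. It had 12, 8 and 12 reads in NC (0.0799, 0.0470 and 0.0782 FPKM), 10, 6 and 8 reads with SFRP2 siRNA (0.0683, 0.0428 and 0.0638 FPKM), and 51, 37 and 31 reads with RAB6A siRNA (0.389, 0.271 and 0.262 FPKM). Each RAB6A library was above all 6 others, although the levels remained a small fraction of those of the other receptor genes. Without the filter limma gave a log2 fold change of 1.27 (SE 0.25, adjusted p = 0.0062), and voom on the recovered reads, an analysis added after the data were seen, gave 2.15 (SE 0.47, adjusted p = 0.00094). The same 2 fits gave Il34 an adjusted p of 0.12 and 0.13. Neutrophil markers were near the floor in both groups and not higher with RAB6A siRNA. Their summed level was 0.685 to 1.24 FPKM in NC, where S100a8 averaged 0.896 FPKM and S100a9 and Elane were at 0 in all 3 libraries. With RAB6A siRNA the sum was 0 to 0.229 FPKM, with S100a9, Elane, Mpo and Camp at 0 in all 3 libraries. Whether these markers bear on Csf3r was not tested.

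**Figure D3:**
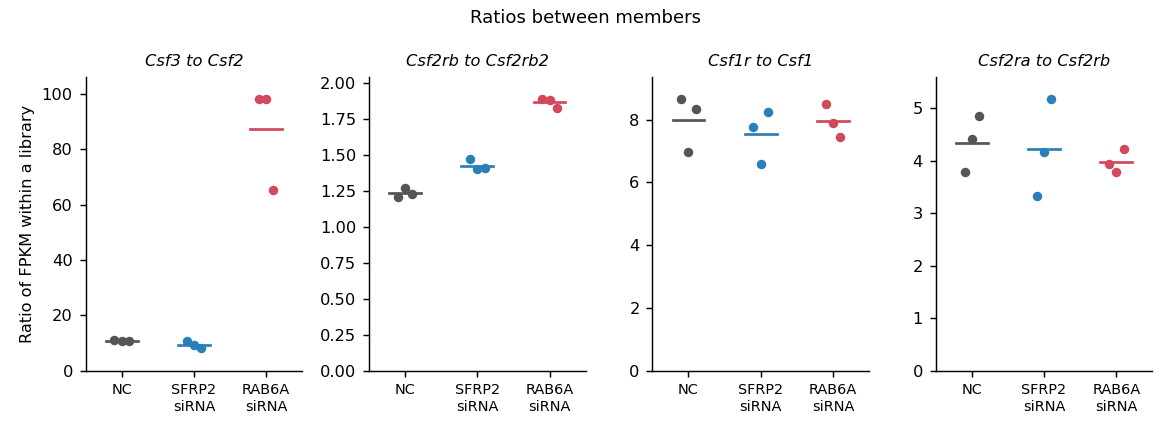
Ratios of FPKM between members within each library, by group. Points are libraries and bars are group means (n = 3), and every y axis starts at 0. Csf3 to Csf2 averaged 10.8 in NC, 9.41 with SFRP2 siRNA and 87.3 with RAB6A siRNA, Csf2rb to Csf2rb2 rose in steps, and the Csf1r to Csf1 and Csf2ra to Csf2rb ratios overlapped between groups.

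The order of the levels changed accordingly. In NC and with SFRP2 siRNA it ran Csf3, Csf1r, Csf2, Csf2ra, Csf1, Csf2rb, Csf2rb2 and Csf3r, and the ranges of neighbouring genes did not overlap in either group. With RAB6A siRNA, Csf3 remained first and Csf3r last, but Csf2ra (27.1 ± 1.34 FPKM) and Csf1r (27.0 ± 1.19 FPKM) had overlapping ranges in the next places, Csf2 came below both, and Csf2rb2 (3.66 ± 0.0890 FPKM) and Csf1 (3.41 ± 0.338 FPKM) overlapped after Csf2rb (SD, n = 3 each). In mean FPKM, Csf1r fell from having 545 genes above it in NC to 1559, and Csf2 from 749 to 3034, whereas Csf3 went from 49 to 31.

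SFRP2 siRNA was compared with NC to ask whether the siRNA against SFRP2 went with changes in these genes. None of the 7 genes tested was called, as was none of the 12017 genes tested with limma (0%). The paper does report differentially expressed genes for SFRP2 siRNA in RAW264.7 cells. Its methods name DESeq2, a test on read counts, so the paper's calls and the limma calls on FPKM come from unlike tests. At an unadjusted p under 0.05, 18.5% of all genes passed, and voom on recovered reads called 40 genes, 7 higher and 33 lower. Log2 fold changes of Csf1, Csf1r, Csf2, Csf2ra, Csf2rb and Csf3 lay between -0.15 for Csf3 and 0.06 for Csf2, each with a 95% interval that included 0. The interval was narrow for Csf2 (-0.05 to 0.16), Csf2rb (-0.13 to 0.11) and Csf1 (-0.15 to 0.11), and wider for Csf1r (-0.32 to 0.12), Csf3 (-0.36 to 0.07) and Csf2ra (-0.43 to 0.31).

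Csf2rb2 was the only member of the 7 with an unadjusted p under 0.05 in this comparison. Its mean was 5.00 ± 0.0510 FPKM with SFRP2 siRNA and 5.78 ± 0.127 FPKM in NC (SD, n = 3 each), lower in 3 of 3 libraries with no overlap. The log2 fold change was -0.21 (SE 0.05, unadjusted limma p = 0.0059; exact permutation p = 0.1 on FPKM), and it failed the correction over all genes (limma adjusted p = 0.18, between 0.12 and 0.45 over 19 alternatives). Groups that did not overlap were seen for 24.7% of all genes tested.

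The difference between RAB6A siRNA and SFRP2 siRNA was tested directly, with the RAB6A libraries entering both this comparison and that against NC, and the NC libraries entering both comparisons above. Again 5 of 7 genes were called, 1 higher and 4 lower, where 73.4% of 12764 genes were called, 37.6% higher and 35.8% lower. An absolute log2 fold change over 1 as well was met by 4 members, and by 31.1% of all genes. The groups did not overlap for 6 of the 8 members, a count that includes the untested Csf3r, beside 77.0% of genes tested. Log2 fold changes were -1.39 for Csf1, -1.34 for Csf1r, -2.11 for Csf2, -0.44 for Csf2rb2 and 1.07 for Csf3 (limma adjusted p at most 0.00061). Csf2ra (-0.13, 95% interval -0.47 to 0.21) and Csf2rb (-0.06, 95% interval -0.21 to 0.08) were not called. Csf2ra was called with the GC content and length correction (-0.47, adjusted p = 0.042), and its sign turned to 0.03 without SFRP2 library 3, the highest of its group. In the same fit, the correction brought Csf3 down to 0.53.

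**Figure D4:**
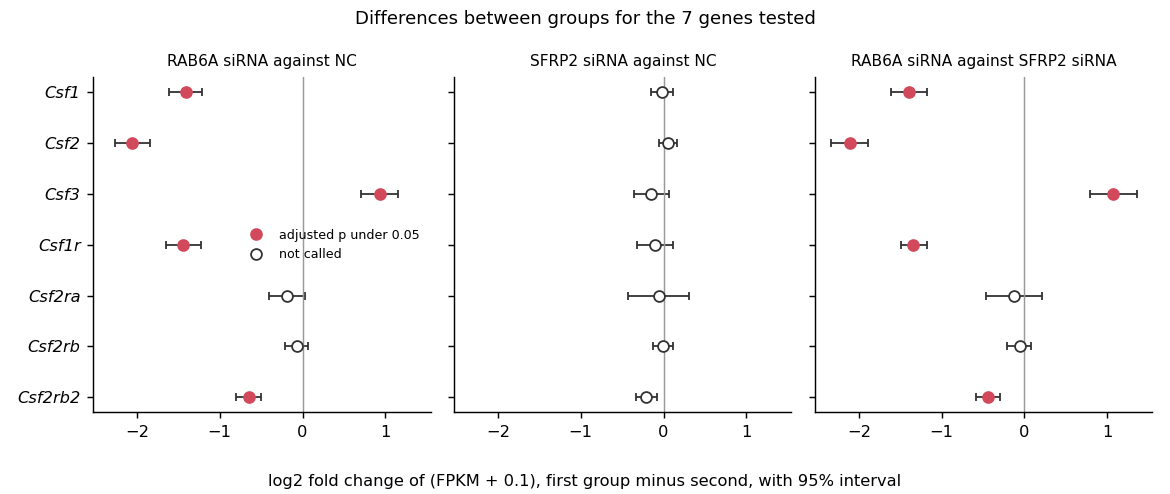
Log2 fold changes of the 7 genes tested in the 3 comparisons, first group minus second, with 95% intervals from limma (n = 3 per group). Filled points had an adjusted p under 0.05. Against NC, RAB6A siRNA placed Csf2 at -2.06, Csf1r at -1.44, Csf1 at -1.41, Csf2rb2 at -0.65 and Csf3 at 0.93, whereas no gene was called with SFRP2 siRNA.

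Promoters of 5 members (Csf1, Csf2, Csf2ra, Csf2rb2 and Csf3r) were matched in RefSeq (GRCm38.p6), each running from 250 bases before to 50 bases after the start. Those of Csf1, which fell with RAB6A siRNA, and Csf2ra, which was not called, are shown 5' to 3' on the gene's strand with letters of factors known in macrophages in capitals. For Csf1, capitals mark GGGNNTTTCC, a form of the NF-kB motif, on the reverse strand. For Csf2ra, they mark 2 adjoining copies of GAGGAA, the core of the PU.1 motif.
Csf1: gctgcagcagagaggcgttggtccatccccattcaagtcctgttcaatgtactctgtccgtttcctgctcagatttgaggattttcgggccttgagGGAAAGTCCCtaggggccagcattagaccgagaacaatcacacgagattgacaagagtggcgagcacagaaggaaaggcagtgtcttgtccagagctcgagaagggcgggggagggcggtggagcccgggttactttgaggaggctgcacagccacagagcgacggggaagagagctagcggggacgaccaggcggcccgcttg
Csf2ra: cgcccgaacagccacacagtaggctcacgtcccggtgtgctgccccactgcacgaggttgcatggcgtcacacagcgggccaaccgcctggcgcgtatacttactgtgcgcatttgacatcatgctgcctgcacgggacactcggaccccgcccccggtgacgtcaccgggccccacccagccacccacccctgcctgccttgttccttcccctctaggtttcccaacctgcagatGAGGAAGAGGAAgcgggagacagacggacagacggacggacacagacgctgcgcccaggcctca
The Csf1 promoter is chr3:107760420-107760719 (minus strand), and its match lies 154 to 145 bases before the start. The Csf2ra promoter is chr19:61228369-61228668 (minus strand), with matches 14 to 9 and 8 to 3 bases before the start. Searched on both strands, the NF-kB letters were in 1.63% of 32851 promoters and, of the 5 members, in Csf1 alone. GAGGAA was in 28.3% of promoters and in those of Csf2ra, Csf2rb2 and Csf3r, TTGCNNAA, a C/EBP motif, was in 10.8% and in Csf2, and TGANTCA, the AP-1 motif, was in 7.81% and in none of the 5. Of the 3 members with GAGGAA, Csf2rb2 was called lower with RAB6A siRNA, Csf2ra was not called and Csf3r was not tested.

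The genes around these ligands and receptors were described from 9 lists of 102 genes, of which 101 were measured and 86 tested against NC. With RAB6A siRNA, 31 rose and 39 fell, 81.4% of those tested beside 74.1% of all genes, with a median log2 fold change of -0.14. Of all genes tested, 37.6% were called higher and 36.5% lower. The counts for each list below stand beside these shares, so calls in both directions are not particular to these lists. With SFRP2 siRNA, 0 of 85 were called by limma, 19 had an unadjusted p under 0.05, and the smallest adjusted p was 0.18. RAB6A siRNA against SFRP2 siRNA gave 31 higher and 37 lower of 86, which is 79.1% beside 73.4% of all genes tested.

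Genes that carry the signal from the receptors mostly moved by small amounts. Of 23 tested, 8 rose and 9 fell. Pik3cd and Pik3cb, catalytic subunits of PI3-kinase, had log2 fold changes of -0.81 and -0.41, and the RAS exchange factor Sos2 had -0.66. Tyrobp, the adaptor DAP12, rose from 209.9 ± 3.17 to 413 ± 48.5 FPKM (log2 fold change 0.97), and the kinases Fgr and Tyk2 rose by 0.91 and 0.62. As for Csf3, the size of the Tyrobp rise depended on the scaling, at 0.21 (limma adjusted p = 0.019) after the GC content and length correction and 0.50 after quantile normalization. The same correction brought Pik3cb to -0.22, and a pseudocount of 1 brought the low gene Fgr to 0.55. Jak2, the kinase bound to CSF2RB, was at -0.15 (adjusted p = 0.063), whereas Stat5a was called at -0.37 and Stat5b, at 0.18, was not.

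Genes that dampen CSF receptor signals were split, with 5 higher and 8 lower of 15 tested. Cish, a STAT5-induced inhibitor, rose from 0.504 ± 0.10 to 2.66 ± 0.0619 FPKM (log2 fold change 2.20, SE 0.16, limma adjusted p = 1.4e-05), which became 1.28 with a pseudocount of 1. The adaptors Dok3 and Dok1 rose by 1.41 and 1.14. Socs3, the inhibitor best known for limiting CSF3R and gp130 signals, fell from 248 ± 11.1 to 126 ± 14.4 FPKM (log2 fold change -0.99, adjusted p = 4.5e-05), and the RAS pathway inhibitor Spred2 fell by 1.21. Ptpn11, which fell by 1.06, stands in this list but encodes the phosphatase SHP2, known chiefly as a positive mediator of RAS signalling. Among 5 shedding genes tested, Adam17, the protease that cuts CSF1R from the cell surface, fell from 39.5 ± 1.32 to 19.1 ± 1.40 FPKM, Adam10 fell by 0.80, and the other 3 were not called.

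Of 12 regulators of AU-rich mRNA, 6 rose and 4 fell. Zfp36 (tristetraprolin), which promotes decay of mRNAs with the AU-rich letters shown above, rose from 157 ± 8.15 to 428 ± 12.0 FPKM (log2 fold change 1.45, limma adjusted p = 2e-06), and its relative Zfp36l1 rose by 1.73. Zc3h12a (regnase-1), an RNase of cytokine mRNAs, fell by 1.07, and Khsrp and Hnrnpd each fell by 0.41, with Hnrnpd at -0.22 after the GC content and length correction. Among the members with pentamers, Csf2 (9 pentamers), Csf1 (4) and Csf1r (3) fell, and Csf3 (6) rose. Whether these regulators or the pentamers bear on the levels of the members was not tested.

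Transcription factors of Csf1r had the lowest median of the 7 lists with tested genes, -0.75, with 5 higher and 7 lower of 13. Maf fell from 13.5 ± 1.87 to 0.422 ± 0.0704 FPKM (log2 fold change -4.71, SE 0.14, limma adjusted p = 8.9e-07). Egr2 and Ets2 fell, with log2 fold changes of -1.35 and -1.33, and Jun, Egr1 and Runx1 rose by 1.16, 1.05 and 0.71. Egr2, a low gene, ranged from -2.15 with quantile normalization to -0.61 with a pseudocount of 1. Spi1, which encodes PU.1 and was named after its value was seen, fell from a mean of 130.4 to 62.9 FPKM.

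Response genes moved in both directions. Among 9 STAT5 and GM-CSF response genes tested, 4 rose and 4 fell: the chemokine gene Ccl22 rose from 4.64 ± 0.149 to 98.3 ± 8.95 FPKM (log2 fold change 4.37, adjusted p = 3.4e-07) and the kinase gene Pim1 from 56.4 ± 2.34 to 109.8 ± 14.3 FPKM, while Ccnd2 and Il1rn fell, with log2 fold changes of -1.03 and -0.92. Osm, at -0.27, was barely called (limma adjusted p = 0.049) and lost the call under several alternatives. Bhlhe40 rose by 0.46. Among 9 CSF1 response genes, 3 rose and 5 fell: Ccl2 fell from 2142 ± 151 to 664 ± 60.2 FPKM, the cyclin gene Ccnd1 from 103 ± 1.92 to 57.5 ± 2.21 FPKM and Cx3cr1 by 0.75 on the log2 scale, while the phosphatase genes Dusp1 and Dusp5 rose by 1.57 and 0.50 and Mmp9 by 1.11, which became 0.56 with a pseudocount of 1 and 0.67 with quantile normalization.

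**Figure D5:**
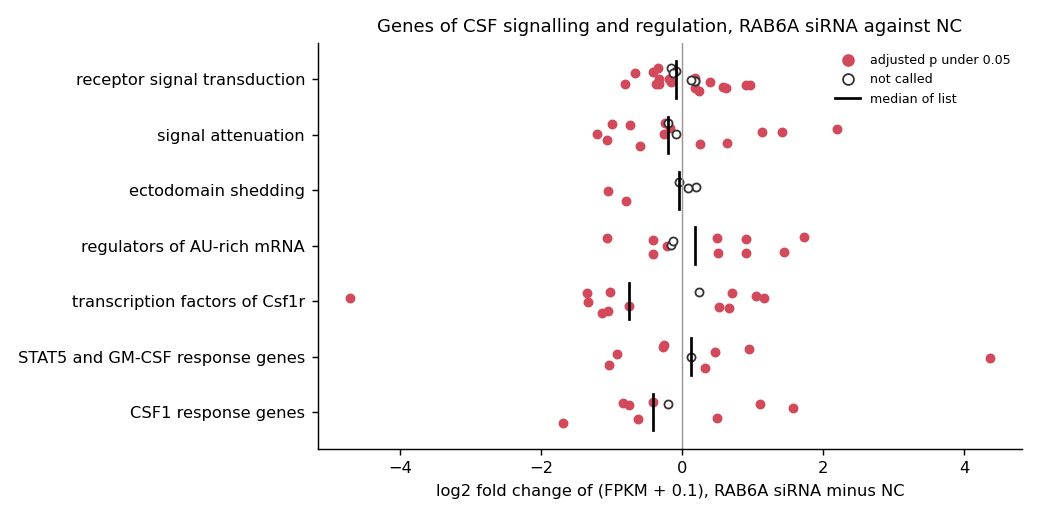
Log2 fold changes with RAB6A siRNA against NC for the tested genes of 7 lists around CSF signalling. Each point is a gene, filled where the adjusted p was under 0.05, the vertical scatter within a list has no meaning, and black bars are list medians. Maf lies at -4.71 and Ccl22 at 4.37, and the transcription factor list has the lowest median, -0.75.

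For each member with a mean FPKM of at least 0.5, the genes with the most similar profile were found by the root mean square distance between log2(FPKM + 0.1) values centred over the 9 libraries, among 10863 named genes that averaged at least 1 FPKM. The 9 libraries form 3 groups, so genes that share the same step between groups come out close. The closest to Csf1 were Mettl2 (distance 0.0363), Pabpc4 and Tars, to Csf1r Nop16 (0.0696), Nol6 and Eftud2, and to Csf2 Clspn (0.0404), Slc16a1 and Sfpq. Csf3 was nearest to Tmem243 (0.0497), followed by Tyrobp and Pim1, which also stand in the lists above. Csf2rb was nearest to Tapbp (0.0195), Hsd17b11 and Psma3, Csf2rb2 to Pdhx (0.0448), Usp18 and Cdc25b, and Csf2ra, whose libraries scattered most, to Wdr62 (0.102), Arhgap27os3 and Dusp18.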

How the data were processed

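RNA-seq covered 9 libraries in 3 groups. Per the labels, paired-end mRNA libraries were made, and the submitters' processing notes name HISAT2, featureCounts and Subread. The genome build and annotation are not given in the sources used here. The authors deposited FPKM values per Ensembl gene. GENCODE M21 (GRCm38) named 27533 of 28137 identifiers. Steps in the low FPKM values gave whole reads, within 0.03 reads in every library, for 98.2% of named genes.

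Groups were compared in pairs with limma 3.58.1 (R 4.3.3) on log2(FPKM + 0.1), with a trended prior, keeping genes whose FPKM averaged 0.5 or more, and Benjamini-Hochberg adjustment over all genes tested. Ratios were compared by two-sided exact permutation tests. Scripts were tested on simulated data. Members, lists and tests were chosen with earlier results of these data known. Besides all members, Sfrp2, Rab6a and Il34, the text names up to 3 genes per direction with the largest called changes of each list. It also names lists of under 5 genes in full, and the 3 nearest profiles of each member. Jak2, Stat5a, Stat5b, Spi1 and the single cell type and inflammatory markers were named after their values were seen. Alternatives covered the pseudocount, the filter, scaling, trend, replicate block, a fit of all 9 libraries, voom, a GC content and length correction, and leaving out each library. The paper's methods describe transfection of these cells differently and name interferon gamma beside LPS for their stimulation, and the labels were followed.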

Additional observations from a re-analysis of the deposited data

How the results depend on the processing

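With RAB6A siRNA, Csf1, Csf1r, Csf2, Csf2rb2 and Csf3 kept their direction and call under all 19 alternatives in both comparisons. Against NC, log2 fold changes ranged from -2.57 to -1.95 for Csf2, from -1.46 to -1.21 for Csf1, from -1.54 to -1.35 for Csf1r, from -0.69 to -0.54 for Csf2rb2 and from 0.48 to 1.02 for Csf3. Calls past an absolute log2 fold change of 1 numbered 3829 against NC and 3972 against SFRP2 siRNA, and 2389 and 2501 with a pseudocount of 1, which shrinks low genes. For SFRP2 siRNA against NC, the number of genes called was 0 by limma, 40 by voom, 182 by voom with no filter (added after the data were seen), and 0 to 1 on leaving out a library; voom with no filter called 1 list gene, Irf8 (log2 fold change -0.24, adjusted p = 0.038). Several values in that comparison lay near 0 and changed sign. With the GC content and length correction, with or without the replicate block, Csf1 became 0.06, Csf2 -0.01, Csf2ra 0.09, Csf2rb 0.06 and Rab6a -0.02. With median-of-ratios scaling Csf2rb became 0.00027. On leaving out a library, values ranged from -0.06 to 0.02 for Csf1, from -0.22 to 0.08 for Csf2ra and from -0.03 to 0.01 for Csf2rb, and for Csf2ra with RAB6A siRNA against SFRP2 siRNA from -0.27 to 0.03. The cause was not tested. Libraries of the same number in different groups did not deviate together (mean correlation -0.0102, from -0.0847 to 0.0477). Those of different numbers gave similar values (mean 0.0051, from -0.116 to 0.0815). This cannot show whether libraries of the same number were handled together. With the replicate block, 9103 genes were called with RAB6A siRNA against NC, 9159 against SFRP2 siRNA and 0 with SFRP2 siRNA against NC, and the calls of the members were the same. Low read counts limit what can be said of Csf3r, Il34 and Sfrp2.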
